A study of Mus musculus with 6 samples.

Results

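Nucleolar ribosome biogenesis factors are proteins that transcribe, modify, cut and assemble ribosomal RNA. A list of 60 mouse genes for such proteins was described here, chosen by name from the 21436 genes of the deposited table. The choice was made with earlier results of these data known. All 60 had a row, and all 60 were above the level at which genes were tested. The list spans RNA polymerase I, the protein cores of the small nucleolar ribonucleoproteins (snoRNPs), the complexes that build the small ribosomal subunit and the factors that build the large one.

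RNA was sequenced from wild-type 3T3-L1 cells, a mouse embryonic fibroblast line that can turn into adipocytes under hormonal induction. In the co-culture group (3 libraries) human umbilical cord mesenchymal stem cells sat in the upper chamber of a Transwell, above a membrane with 0.4 µm pores. In the alone group (3 libraries) the upper chamber held no such cells. Both groups were kept for 72 h in the same high-glucose differentiation medium with 10% serum, 2 µM rosiglitazone, 1 µM dexamethasone, 0.5 mM IBMX and 10 mg/L insulin. No group without this medium was analysed here, so the comparison concerns the presence of the human cells and not differentiation itself. Nothing in the labels tells whether the 3 libraries of a group are separate cultures. The p-values therefore rest on the spread among these libraries alone, and that spread may be technical.

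Ribosomes are made in the nucleolus. RNA polymerase I transcribes a long precursor there, box C/D and box H/ACA snoRNPs guide its 2′-O-methylation and pseudouridylation, and the small-subunit processome folds and cuts the part that becomes the small subunit. Other factors mature the large subunit before both are exported to the cytoplasm. The pathway is a major consumer of energy in growing cells, and many of its genes are known targets of the transcription factor MYC. In 3T3-L1 cells hormonal induction is followed by a few rounds of division before the cells accumulate lipid.

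Between 29603755 and 37612585 reads per co-culture library, and between 36119750 and 38357563 per alone library, underlie the values, which are FPKM, a level corrected for gene length and for the total of each library. A member had 430 to 45867 reads in a library. The lowest of these values was that of Rrp9, where counting error alone is 4.82%, and intervals of this kind cover counting error only. Pearson correlations across all tested genes were 0.9974 to 0.9982 within groups and 0.9914 to 0.9929 between them, where genes are not independent replicates. Of 10 fibroblast and preadipocyte markers 9 were tested and expressed, with summed levels of 4244 to 4366 FPKM in co-culture and 3901 to 4141 FPKM alone, while Cd34 was near 0. Of these 9, Pdgfra, Pdgfrb, Vim, S100a4 and Dlk1 were called higher and Col3a1 and Thy1 lower in co-culture. With 1 library left out, the number called higher ranged from 2, without co-culture replicate 3, to 6, without alone replicate 1; 3 were called higher when replicate 2 or 3 of the cells alone, or the first co-culture library, was left out, and 1 was called lower without that co-culture library. The 4 mature adipocyte markers with a row summed to 0.0654 to 0.109 FPKM in co-culture and 0.0383 to 0.0895 FPKM alone, so these transcripts were close to absent from both groups. Endothelial and epithelial markers were near 0, and 5 macrophage markers summed to 3.82 to 4.44 FPKM in co-culture and 4.25 to 5.94 FPKM alone. The 8 blood and neutrophil markers summed to 3.82, 11.2 and 21.0 FPKM in co-culture replicates 1 to 3 and 22.8, 19.7 and 35.9 FPKM in alone replicates 1 to 3, and Hbb-bs, Hbb-bt, Hba-a1, Hba-a2, S100a9 and Ngp were at 0 in co-culture replicate 1. Of the 4 tested markers of that list 2 were called lower in co-culture (1 when any alone library or co-culture replicate 2 was left out, and 4 without co-culture replicate 3). The part of the fibroblast and blood transcripts in the results below was not tested.

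A majority of the nucleolar factors fell in co-culture, each by a small amount, and a single one rose. With limma on log2(FPKM + 1) and a Benjamini-Hochberg adjusted p below 0.05, 32 of the 60 members fell (53.3%), against 17.9% of all 10055 tested genes called lower. The member that rose was Nop53 (1.67%), against 13.9% of all tested genes called higher, and 27 members were not called. The number of all genes called higher, 1402, was smaller when any library but alone replicate 1 was left out. It then ranged from 925, without co-culture replicate 3, to 1076, without co-culture replicate 2. Without alone replicate 1 it was 1419. Of the members 53 had a negative log2 change (88.3%), against 50.9% of all tested genes. The median log2 change of the members was −0.16, against −0.0037 over all tested genes. The groups did not overlap for 37 members that were lower in co-culture (61.7%, against 24.8% of all tested genes) and for 3 that were higher (against 21.3%).

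The changes were small but stood out from a small replicate spread. The 32 members that fell were 8.85% to 29.7% lower in co-culture as a ratio of mean FPKM, with a median of 15.7% (1.19-fold). Only 6 of the 60 members were called and more than 1.25-fold lower, namely Nop56, Nop14, Gar1, Noc4l, Dkc1 and Heatr1. Of all tested genes 6.79% were called and that far down, a share not far below that of the members. Leaving out each library in turn gave 27 to 33 members called lower, and 27 of the 32 stayed called in all 6 of these fits. The other 5 were Polr1a, Npm1, Utp4, Rcl1 and Noc3l. Under median-ratio, TPM and quantile scaling the median log2 change of the members was −0.151, −0.166 and −0.145. That of all tested genes lay within 0.0129 of 0, which median-ratio and quantile scaling largely bring about by themselves.

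**Figure D1:**
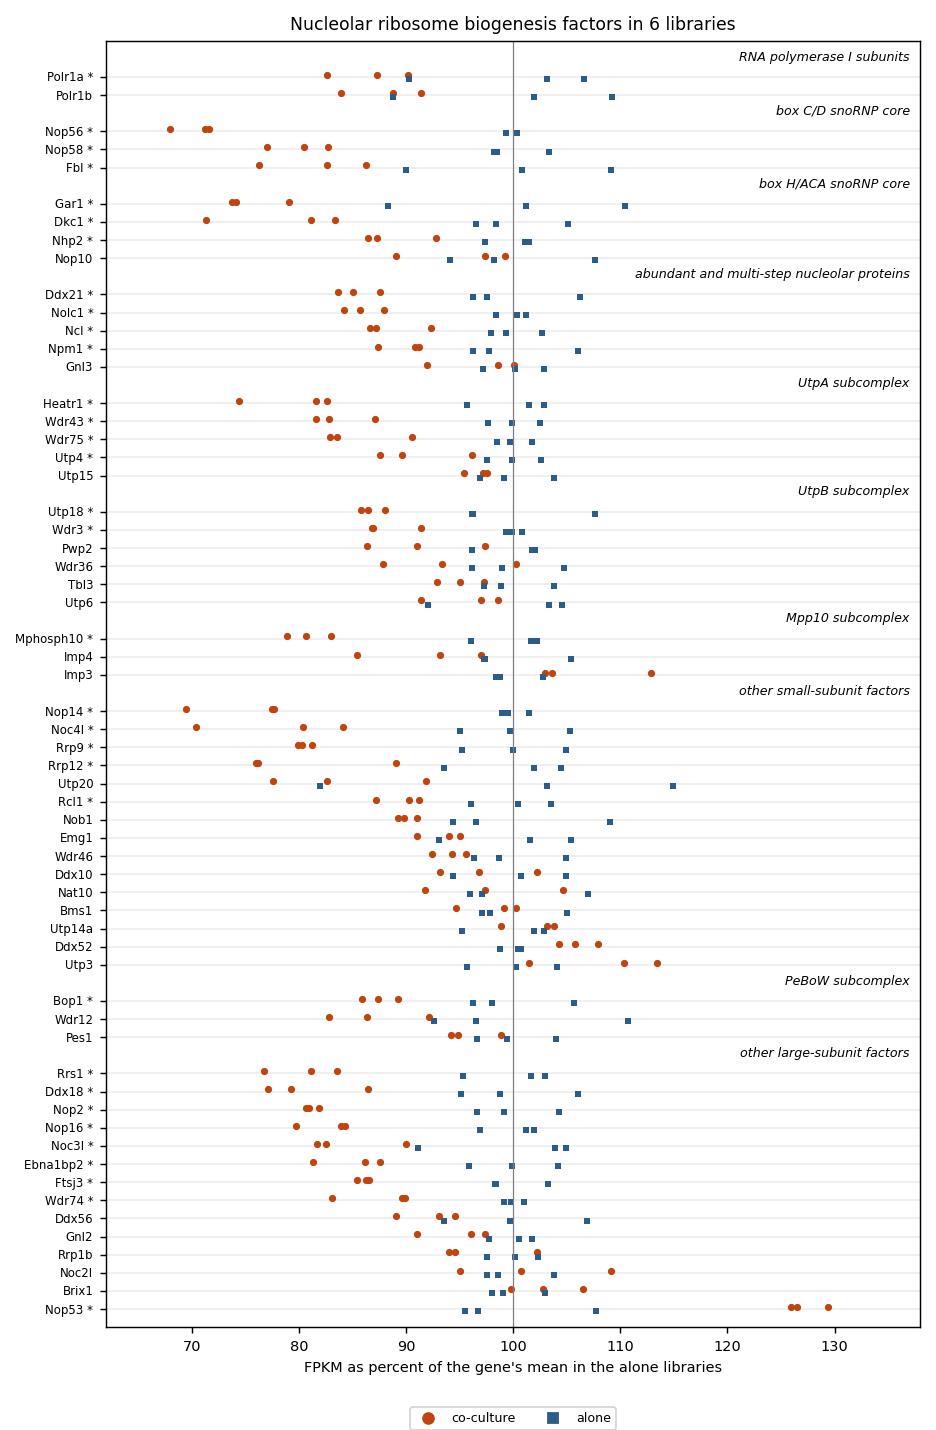
The level of each of the 60 members in each library is drawn on the x axis as a percent of the gene's mean FPKM in the 3 alone libraries, with circles for co-culture, squares for alone, members grouped by role and an asterisk for a call at an adjusted p below 0.05. Most circles lie left of 100%, the lowest being that of Nop56 in co-culture replicate 1 at 67.9%, and the circles of Nop53 lie alone at 126% to 129%.

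As a summed level, the 60 members had 2078, 2130 and 2094 FPKM in the co-culture libraries and 2399, 2276 and 2294 FPKM in the alone libraries. The groups did not overlap, and the co-culture mean of 2101 ± 26.6 FPKM lay below the alone mean of 2323 ± 66.4 FPKM (SD, n = 3 each), a change of −9.56%. Npm1 contributed most to this sum, and without it the change was −9.3%. In reads, the members took 0.551%, 0.567% and 0.552% of the co-culture libraries and 0.638%, 0.615% and 0.623% of the alone libraries. These sums carry no test. In RNA from a whole culture, fewer cells of a kind and less RNA per cell cannot be told apart.

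**Figure D2:**
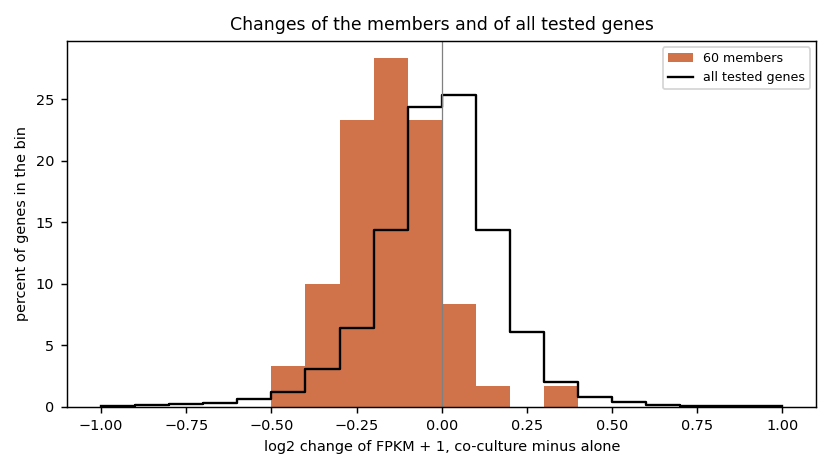
The distribution of log2 changes of FPKM + 1 (co-culture minus alone, x axis, bins of 0.1) is shown as percent of genes per bin (y axis) for the 60 members (filled bars) and for all 10055 tested genes (line), of which 27 lie outside the plotted range. The members' bars peak between −0.2 and −0.1, while the line peaks around 0, and the lone bar on the right is Nop53.

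The members differ widely in level, with means over the 6 libraries of 3.22 FPKM (Wdr12) to 629.9 FPKM (Npm1) and a median of 17.8 FPKM. Among the 30 members with the higher means 20 fell and Nop53 rose, and among the 30 with the lower means 12 fell. The shares of all tested genes given here, such as the 17.9% called lower, cover every gene whose mean reached 1 FPKM. These shares were not matched to the members' levels. The part of level in the difference between the members and all tested genes was not tested. Across the 60 members, which share the same 6 libraries, the mean level and the change had a Spearman correlation of −0.045, and gene length and the change one of 0.023.

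For the promoters, 250 bases before the RefSeq start (GRCm38.p6) could be matched for 50 of the 60 members, and 6 motifs were searched on both strands. None of the 6 contains another. CCGGAAG, the core letters recognised by ETS-family factors, was present in 16 of the 50 (32.0%), against 17.4% of 8150 promoters of tested genes and 7.83% of all 27025 promoters. Of the 27 members with a promoter that fell, 9 had it. Bms1, Brix1, Ddx10, Emg1, Pwp2, Utp3 and Wdr46 had it too and were not called. Whether these letters go with the fall was not tested. CACGTG, the E-box letters that MYC and MAX bind, was present in 4 of the 50 (8.0%), namely Nop2, Utp18, Imp4 and Wdr46, against 10.3% of promoters of tested genes and 6.86% of all. CCAAT, the letters of NF-Y sites, was in 20 of the 50, against 41.4% of promoters of tested genes and 37.5% of all, and the TATA-box letters TATAAA in 2, against 7.36% and 14.3%. The palindromic motifs of BANP and NRF1 were in 0 of the 50, against 1.13% of promoters of tested genes for BANP and 2.1% for NRF1. A match describes the letters only.

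The 60 bases before the start are printed for 6 members, chosen from those whose windows hold such letters. Members that fell come first, from the strongest fall among those printed, and Pwp2, which was not called, comes last. None of the 6 windows overlaps an annotated exon. Nop14, Dkc1, Noc3l, Wdr75, Ftsj3, Ncl and Rcl1 also fell and have windows free of annotated exons, but these hold none of the searched motifs. They are not printed. Polr1a, which fell, and Emg1, which was not called, have exon-free windows that do hold such letters, and are not printed either. Capitals mark the ETS, E-box or NF-Y letters named above, on either strand. Each sequence is written 5′ to 3′ on the gene's own strand and the source is RefSeq on GRCm38.p6. The windows are chr2:130274352-130274411 (plus strand) for Nop56, chr3:129831397-129831456 (minus) for Gar1, chr6:125131823-125131882 (plus) for Nop2, chr19:46075787-46075846 (plus) for Nolc1, chr11:93885767-93885826 (minus) for Utp18 and chr10:78185150-78185209 (minus) for Pwp2.
Nop56: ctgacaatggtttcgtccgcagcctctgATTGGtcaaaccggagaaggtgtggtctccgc
Gar1: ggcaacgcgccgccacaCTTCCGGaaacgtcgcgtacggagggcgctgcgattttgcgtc
Nop2: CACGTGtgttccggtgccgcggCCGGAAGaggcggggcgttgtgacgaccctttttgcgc
Nolc1: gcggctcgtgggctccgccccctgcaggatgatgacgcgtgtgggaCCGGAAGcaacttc
Utp18: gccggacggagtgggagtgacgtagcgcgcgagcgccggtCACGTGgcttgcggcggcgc
Pwp2: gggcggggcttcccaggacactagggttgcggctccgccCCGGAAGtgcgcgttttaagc

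The box C/D snoRNP core, which carries out 2′-O-methylation of ribosomal RNA, fell in all 3 of its members (Fbl, Nop56 and Nop58), with a median log2 change of −0.32. Nop56, a scaffold protein of this particle (chr2:130274430-130279313 in GRCm38, the build of all coordinates here, plus strand), had 33.9, 35.7 and 35.5 FPKM in the co-culture libraries, against 50.05, 49.5 and 49.99 FPKM in the alone libraries. Each group was tight and the gap between them was many times its width. This was the largest fall among the members, 1.42-fold (log2 change −0.50, SE 0.0353, limma adjusted p = 5.18e-06). Its paired scaffold Nop58 (chr1:59684971-59719044, plus strand) had 54.6, 58.6 and 57.02 FPKM in co-culture and 73.2, 69.8 and 69.6 FPKM alone, again without overlap, and was 1.249-fold lower (log2 change −0.32, SE 0.0387, adjusted p = 2.16e-04). Fbl, fibrillarin, the methyltransferase of the particle, averaged 41.2 ± 2.55 FPKM in co-culture and 50.5 ± 4.83 FPKM alone (SD, n = 3 each) and was 1.22-fold lower (adjusted p = 0.00868).

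Of the box H/ACA snoRNP core, which pseudouridylates ribosomal RNA and also protects telomerase RNA, 3 of 4 members fell. Gar1 (chr3:129824912-129831396, minus strand) had 16.02, 14.9 and 15.02 FPKM in co-culture, against 22.4, 17.9 and 20.5 FPKM alone. The co-culture libraries lay close together while the alone libraries were spread, and the groups did not overlap. It was 1.32-fold lower (log2 change −0.38, SE 0.0682, adjusted p = 0.00224). Dkc1, dyskerin, the pseudouridine synthase (chrX:75095854-75109777, plus strand), had 12.4, 14.5 and 14.1 FPKM in co-culture and 17.1, 16.8 and 18.3 FPKM alone and was 1.27-fold lower (log2 change −0.33, SE 0.0583, adjusted p = 0.00197). Nhp2 was 1.12-fold lower (adjusted p = 0.011). Nop10, the smallest protein of the particle and the most abundant transcript of the 4, had 77.99, 86.9 and 85.3 FPKM in co-culture and 94.3, 85.98 and 82.4 FPKM alone. Its groups overlapped and it was not called (log2 change −0.069, SE 0.0547, adjusted p = 0.366).

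Among the abundant nucleolar proteins that act at several steps, 4 of 5 fell. Npm1, nucleophosmin, a chaperone of the granular part of the nucleolus, was the most abundant member, with 579.8, 605 and 603 FPKM in the co-culture libraries and 704, 649 and 639 FPKM in the alone libraries. The groups did not overlap, but alone replicate 1 was well above the others of its group. The fall of 1.11-fold (log2 change −0.15, SE 0.0448, adjusted p = 0.0243) was not called without co-culture replicate 1 (adjusted p = 0.103) and not without co-culture replicate 3 (adjusted p = 0.0636). Nolc1, a phosphoprotein that binds snoRNPs, had 31.9, 32.5 and 33.4 FPKM in co-culture and 37.4, 38.4 and 38.1 FPKM alone and was 1.16-fold lower (log2 change −0.21, SE 0.0351, adjusted p = 0.00133). Ddx21, an RNA helicase of RNA polymerase I transcription and processing, had 29.6, 30.5 and 29.1 FPKM in co-culture and 33.5, 34.0 and 37.02 FPKM alone and was 1.17-fold lower (log2 change −0.22, SE 0.0439, adjusted p = 0.00375). Ncl, nucleolin, averaged 104 ± 3.71 FPKM in co-culture and 118 ± 2.89 FPKM alone and was 1.13-fold lower (adjusted p = 0.00617). The exception was Gnl3, nucleostemin, a GTP-binding protein abundant in stem and proliferating cells, which averaged 102 ± 4.54 FPKM in co-culture and 106 ± 3.02 FPKM alone and was not called (adjusted p = 0.418).

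Of the 2 largest subunits of RNA polymerase I, 1 was called lower, and this call depended on single libraries. Polr1a had 10.13, 9.803 and 9.278 FPKM in co-culture and 10.14, 11.58 and 11.97 FPKM alone. Co-culture replicate 1 lay just under alone replicate 1, so the groups were narrowly separated. The 1.153-fold fall (log2 change −0.19, SE 0.0611, adjusted p = 0.0402) was not called in 4 of the 6 fits with a library left out. Its adjusted p was 0.121 when alone replicate 2 was dropped and 0.139 when alone replicate 3 was, and 0.0804 and 0.136 when co-culture replicates 2 and 3 were. Polr1b had 5.28, 5.58 and 5.75 FPKM in co-culture and 5.58, 6.41 and 6.87 FPKM alone and was not called (log2 change −0.15, adjusted p = 0.109), although without alone replicate 1 its adjusted p was 0.0168.

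Of the 29 members that build the small subunit 12 fell, with a median log2 change of −0.11. The counts of their 4 groups are given below, and differences between groups were not tested. In the UtpA subcomplex, the first to bind the nascent precursor, 4 of 5 fell. Heatr1, a large HEAT-repeat protein of UtpA (chr13:12395027-12440289, plus strand), had 9.13, 9.25 and 8.33 FPKM in co-culture and 10.7, 11.4 and 11.5 FPKM alone and was 1.26-fold lower (log2 change −0.30, SE 0.0516, adjusted p = 0.00162). Wdr43, a WD-repeat subunit, had 40.8, 43.5 and 41.4 FPKM in co-culture and 48.8, 51.2 and 49.9 FPKM alone and was 1.19-fold lower (log2 change −0.25, SE 0.0381, adjusted p = 8.29e-04). Neither gene's groups overlapped. The WD-repeat subunits Wdr75 (1.17-fold, adjusted p = 0.00303) and Utp4 (1.097-fold, adjusted p = 0.0363) were also lower. The call of Utp4 was lost when any library but co-culture replicate 1 was left out, with adjusted p of 0.0505 to 0.141. Utp15, at 10.7 ± 0.127 FPKM in co-culture and 11.02 ± 0.387 FPKM alone, was not called (adjusted p = 0.479).

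In the UtpB subcomplex, which binds the precursor after UtpA, 2 of 6 members fell. Wdr3 had 13.4, 14.1 and 13.4 FPKM in co-culture and 15.3, 15.4 and 15.5 FPKM alone and was 1.13-fold lower (log2 change −0.17, SE 0.0403, adjusted p = 0.0101). Its exons share 15.71% of their length with Spag17 on the opposite strand, and whether the counting used strand is not given in the sources used here. Utp18 had 16.4, 16.8 and 16.5 FPKM in co-culture and 20.5, 18.3 and 18.4 FPKM alone, and its co-culture libraries were close together below all alone libraries. It was 1.153-fold lower (log2 change −0.19, SE 0.0484, adjusted p = 0.0127). Pwp2, Tbl3, Wdr36 and Utp6 overlapped between groups and were not called, with negative log2 changes of −0.058 to −0.11. Tbl3 shares 37.32% of its exon length with Noxo1 on the opposite strand.

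Within the Mpp10 subcomplex the 3 members were unlike each other. Mphosph10, its scaffold (chr7:64376527-64392268, minus strand), had 22.5, 21.9 and 21.4 FPKM in co-culture and 27.7, 26.04 and 27.6 FPKM alone. The groups were far apart, and it was 1.24-fold lower (log2 change −0.29, SE 0.0402, adjusted p = 4.25e-04). Imp3, which in yeast helps the U3 RNA to pair with the precursor, had 52.1, 47.9 and 47.6 FPKM in co-culture and 47.5, 45.6 and 45.5 FPKM alone. All its co-culture libraries were above all its alone libraries, narrowly, and it was not called (log2 change 0.088, SE 0.0426, adjusted p = 0.141). Imp4, its partner, was at 8.84 ± 0.568 FPKM in co-culture and 9.62 ± 0.445 FPKM alone and was not called either (adjusted p = 0.15). All co-culture libraries of Imp4 were below all its alone libraries, narrowly. The difference between the changes of Mphosph10 and Imp3 was not tested.

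Among the 15 other small-subunit factors 5 fell. Nop14 (chr5:34638536-34660148, minus strand), a factor needed for early cleavages of the precursor, had 32.8, 32.8 and 29.4 FPKM in co-culture and 42.1, 41.8 and 42.9 FPKM alone. The groups were far apart, with co-culture replicate 3 lowest, and the 1.33-fold fall ranked next after Nop56 (log2 change −0.41, SE 0.046, adjusted p = 1.20e-04). Noc4l, whose yeast counterpart binds that of Nop14, had 9.16, 7.67 and 8.75 FPKM in co-culture and 11.5, 10.3 and 10.9 FPKM alone and was 1.28-fold lower (log2 change −0.32, SE 0.0636, adjusted p = 0.0035). Rrp9, a protein of the U3 snoRNP, had 9.45, 9.31 and 9.34 FPKM in co-culture and 12.2, 11.1 and 11.6 FPKM alone and was 1.24-fold lower (log2 change −0.29, SE 0.0465, adjusted p = 0.00123). The co-culture values of Rrp9 differed by less than its counting error. Rrp12, an export and maturation factor, and Rcl1, a processome component, were 1.24-fold and 1.12-fold lower (adjusted p = 0.0118 and 0.0214). The call of Rcl1 was lost when alone replicates 1 or 2, or co-culture replicates 1 or 3, were dropped, with adjusted p of 0.0506 to 0.0821.

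The other 10 of these 15 were not called. Nob1, the nuclease that makes the mature 3′ end of the small-subunit RNA, was lower in every co-culture library (26.9, 26.5 and 26.4 FPKM, against 32.2, 28.5 and 27.9 FPKM alone) with an adjusted p of 0.0553, and it was called without alone replicate 3 (adjusted p = 0.0329). Utp20 was the most variable of them, with 4.24, 4.71 and 3.98 FPKM in co-culture and 4.21, 5.29 and 5.89 FPKM alone (adjusted p = 0.134, and 0.0119 without alone replicate 1). The methyltransferase Emg1 was at 33.4 ± 0.734 FPKM in co-culture and 35.8 ± 2.25 FPKM alone and was not called (adjusted p = 0.15, and 0.0325 without alone replicate 3). The RNA acetyltransferase Nat10, the GTPase Bms1, the helicase Ddx10 and the scaffold Wdr46 had log2 changes of −0.026 to −0.081. The helicase Ddx52 was above its alone range in all co-culture libraries (16.7, 16.9 and 17.2 FPKM, against 16.1, 16.1 and 15.8 FPKM alone) and was not called (adjusted p = 0.138). Utp3 had the largest positive log2 change among these factors, 0.11 (adjusted p = 0.103, and 0.034 without co-culture replicate 2). Utp14a, at 20.3 ± 0.53 FPKM in co-culture and 19.9 ± 0.83 FPKM alone, was not called, and 11.45% of its exon length is shared with a non-coding gene on the opposite strand.

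Of the 17 members that build the large subunit 9 fell and Nop53 rose, with a median log2 change of −0.18. In the PeBoW complex, which is needed to process the precursor of the large-subunit RNA, Bop1 had 21.5, 20.7 and 21.1 FPKM in co-culture and 25.5, 23.2 and 23.6 FPKM alone and was 1.14-fold lower (log2 change −0.18, SE 0.0435, adjusted p = 0.00925). Pes1, its partner, had 27.6, 28.99 and 27.8 FPKM in co-culture and 29.1, 28.3 and 30.5 FPKM alone, which overlap, and was not called (log2 change −0.057, SE 0.0403, adjusted p = 0.309). Wdr12, the third subunit, was at 2.997 ± 0.162 FPKM in co-culture and 3.44 ± 0.328 FPKM alone. Its groups did not overlap and it was not called (adjusted p = 0.111).

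Among the 14 other large-subunit factors 8 fell and Nop53 rose. Nop2, a cytosine methyltransferase of large-subunit RNA long used as a proliferation antigen (chr6:125131909-125144753, plus strand), had 21.7, 21.6 and 21.96 FPKM in co-culture and 26.6, 25.9 and 27.97 FPKM alone. The co-culture values were nearly identical, and the gene was 1.23-fold lower (log2 change −0.29, SE 0.0395, adjusted p = 4.26e-04). Rrs1, which helps to bring the small ribosomal RNA of the large subunit into the particle, averaged 24.9 ± 1.07 FPKM in co-culture and 30.9 ± 1.27 FPKM alone and was 1.24-fold lower (adjusted p = 7.02e-04). The helicase Ddx18 was 1.24-fold lower (adjusted p = 0.00191), and Nop16 1.21-fold (adjusted p = 0.00129). The remaining members that fell were Noc3l, Ebna1bp2, the methyltransferase Ftsj3 and Wdr74, which were 1.18-fold, 1.18-fold, 1.16-fold and 1.14-fold lower. The call of Noc3l was lost when alone replicates 2 or 3, or co-culture replicates 1 or 3, were dropped, with adjusted p of 0.0577 to 0.0651.

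Nop53 moved the other way. Its yeast counterpart brings the RNA exosome and its helicase to the precursor of the large subunit. Nop53 (chr7:15936183-15946074, minus strand) had 92.7, 93.1 and 95.3 FPKM in the co-culture libraries, against 79.3, 70.3 and 71.2 FPKM in the alone libraries. Every co-culture library was above every alone library, and the gene was 1.27-fold higher, with a log2 change of 0.35 (SE 0.0459, limma adjusted p = 3.61e-04). This call held in all 6 fits with a library left out. The 5 members of this group that were not called were Noc2l, Brix1, Rrp1b, the GTPase Gnl2 and the helicase Ddx56, with log2 changes of −0.11 to 0.041. Ddx56 was called lower without alone replicate 1 (adjusted p = 0.0499). Noc2l shares 20.86% of its exon length with Samd11 on the opposite strand. Without Noc2l, Wdr3, Utp14a and Tbl3, the 4 members that share over 10% with an opposite gene, 31 of 56 members fell and Nop53 rose.

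**Figure D3:**
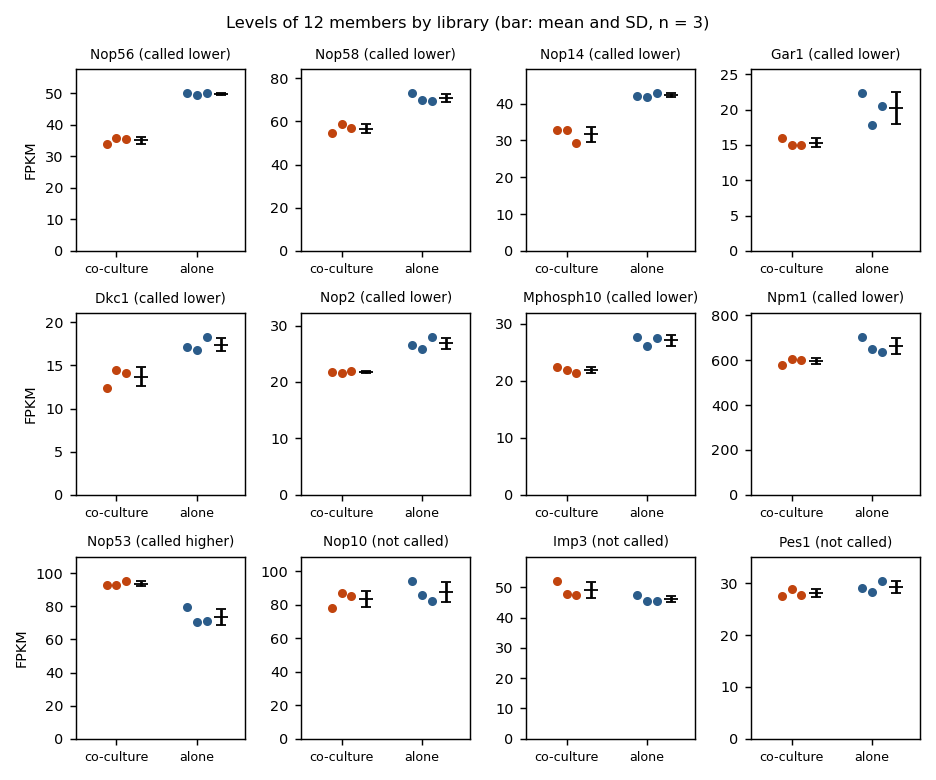
FPKM (y axis, from 0) of 12 members in each of the 3 co-culture libraries (left) and the 3 alone libraries (right) is drawn as points, with the mean and SD of each group beside them (n = 3). Nop56, Nop58, Nop14, Gar1, Dkc1, Nop2, Mphosph10 and Npm1 are lower in co-culture, Nop53 is higher, and Nop10 and Pes1 overlap between groups, while Imp3 was not called.

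Several of these genes carry snoRNA genes in their introns or exons, in the GENCODE annotation of GRCm38. Nop56 holds 5, Nop58 holds 4, Ncl, Wdr43 and Gnl3 hold 3 each, and Dkc1 and Nop53 hold 1 each. Of these 7 host genes 5 fell, Nop53 rose and Gnl3 was not called, with a median log2 change of −0.25, against −0.15 for the 53 members without a snoRNA gene, of which 27 fell. The length that the authors used for Nop56, recovered from the values, was 5807 bases, against 4099 bases of annotated exons. It is longer than the whole annotated span of the gene, so what it was computed over is not known. Other members differed too, with longer recovered lengths for Rrp12 (7768 against 4340 bases) and Ddx10 (6726 against 3128). Some were shorter, such as Fbl (1429 against 4209). Reads of a snoRNA and of its host could not be told apart where they share exon sequence.

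Among the non-coding snoRNA host genes outside the list, Snhg1 and Snhg12 fell further than any member. These genes carry snoRNAs in their introns, many of the box C/D kind, and most of their spliced RNAs encode no protein. Of 13 in the table, 12 were tested, 8 fell (66.7%, against 17.9% of all tested genes) and 2 rose (16.7%, near the 13.9% of all tested genes), with a median log2 change of −0.25. Snhg1 had 249.7, 258 and 262 FPKM in co-culture and 436, 400.3 and 399 FPKM alone, well apart, and was 1.605-fold lower (log2 change −0.68, SE 0.0425, limma adjusted p = 2.57e-06). Snhg12 had 30.1, 30.9 and 25.6 FPKM in co-culture and 53.6, 49.5 and 48.9 FPKM alone and was 1.75-fold lower (adjusted p = 1.36e-05). Snhg5 averaged 81.1 ± 2.83 FPKM in co-culture and 108 ± 5.7 FPKM alone and was 1.33-fold lower (adjusted p = 1.06e-04). Gas5, Snhg3, Snhg6, Snhg8 and Snhg15 fell as well, by 1.09-fold to 1.37-fold. The 2 that rose were Snhg7, 1.31-fold higher (adjusted p = 0.0204), and Snhg20, 1.201-fold higher (adjusted p = 0.0196). Dropping alone replicate 1 left 0 rises, and dropping any other library but co-culture replicate 1 left 1.

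Other genes of the pathway, outside the 60, are given by list, beside the 17.9% lower and 13.9% higher of all tested genes. Of 18 tested genes of the remaining RNA polymerase I machinery 5 fell (27.8%). Polr1g, listed as Cd3eap, a polymerase I subunit, averaged 5.305 ± 0.571 FPKM in co-culture and 7.49 ± 0.314 FPKM alone and was 1.41-fold lower (limma adjusted p = 8.88e-04). Rrn3, which recruits the polymerase to its promoter, was 1.14-fold lower (adjusted p = 0.0049), and Taf1a, a subunit of the promoter selectivity factor, was 1.28-fold lower (adjusted p = 0.00525). Ubtf, the upstream binding factor of the ribosomal RNA genes, was at 12.04 ± 0.638 FPKM in co-culture and 11.7 ± 0.273 FPKM alone and was not called (adjusted p = 0.523). Only 3 fell in the fits that dropped alone replicate 1 or co-culture replicates 1 or 3, and 2 genes rose in that without alone replicate 1.

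Of 29 other small-subunit assembly factors 13 fell (44.8%) and 2 rose (6.9%). Esf1 was 1.302-fold lower, with 16.3 ± 0.483 FPKM in co-culture and 21.2 ± 0.376 FPKM alone (adjusted p = 9.77e-05), Nol10 1.34-fold lower (adjusted p = 1.52e-04) and Utp23 1.303-fold lower (adjusted p = 0.00211). Snu13, which binds the snoRNA itself in the box C/D particle, was 1.11-fold lower (adjusted p = 0.0125), while the methyltransferase Bud23 (1.16-fold) and the abundant helicase Ddx5 (1.09-fold) rose. The rises numbered 0 in the fits that dropped alone replicate 2 or co-culture replicates 1 or 2, 1 in those that dropped replicate 3 of either group, and 4 in that without alone replicate 1.

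Among 37 other large-subunit assembly factors 12 fell (32.4%) and 4 rose (10.8%). Mak16 averaged 35.6 ± 0.599 FPKM in co-culture and 44.0 ± 0.681 FPKM alone and was 1.24-fold lower (adjusted p = 1.34e-04). Nol9, a polynucleotide kinase that acts on the precursor, was 1.34-fold lower (adjusted p = 1.96e-04), and Rpf2, the partner of Rrs1, 1.246-fold lower (adjusted p = 7.10e-04). The 4 that rose were Rrp1 (1.202-fold, adjusted p = 9.31e-04), the endonuclease Las1l (1.14-fold, adjusted p = 0.00474) and the helicases Ddx24 and Ddx51. They were 2 without co-culture replicate 1. Rrp1 is a paralog of the member Rrp1b, which averaged 14.6 ± 0.695 FPKM in co-culture and 15.02 ± 0.363 FPKM alone and was not called.

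Of 10 snoRNP assembly factors 3 fell and 2 rose. The AAA+ ATPases Ruvbl2 (12.5 ± 0.438 FPKM in co-culture and 17.1 ± 0.336 FPKM alone, 1.37-fold lower, adjusted p = 5.01e-05) and Ruvbl1 (1.14-fold lower, adjusted p = 0.0167) work together in this and other complexes. Nufip1, an adaptor of box C/D assembly, was 1.17-fold higher (adjusted p = 0.02). Dropping co-culture replicates 1 or 2 left 1 fall. Dropping alone replicate 3 or co-culture replicate 2 left 0 rises, and dropping co-culture replicate 3 left 1. Of 11 genes of subunit export and late maturation 5 fell (45.5%). They included Nxt1 (1.3-fold, adjusted p = 4.36e-04), Spata5l1 (1.302-fold, adjusted p = 0.00312) and Eif6, which keeps the new large subunit from joining the small one too early (1.21-fold, adjusted p = 0.00407). A single gene of this list rose without alone replicate 1. Of 13 RNA exosome genes 3 fell (23.1%), a share near the 17.9% of all tested genes. They were Exosc1, Exosc9 and Dis3, which were 1.11-fold to 1.19-fold lower.

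Among 15 tested genes of the MYC network and of mTOR complex 1, regulators of ribosome production, 5 fell (33.3%) and 1 rose (6.67%). Myc itself had 83.5, 77.6 and 87.0 FPKM in co-culture and 98.4, 95.4 and 96.95 FPKM alone, without overlap, and was 1.17-fold lower (log2 change −0.23, SE 0.043, adjusted p = 0.00275). Eif4ebp1, a translation repressor that mTOR complex 1 phosphorylates, averaged 126 ± 3.69 FPKM in co-culture and 174 ± 4.79 FPKM alone and was 1.38-fold lower (adjusted p = 1.15e-05). Mxd4, a MAX partner that opposes MYC, was 1.35-fold higher, with 18.3 ± 0.278 FPKM in co-culture and 13.6 ± 0.514 FPKM alone (adjusted p = 6.23e-05), while Mxi1, a repressor of the same kind, was 1.36-fold lower (adjusted p = 9.51e-04). Mtor averaged 15.6 ± 1.29 FPKM in co-culture and 14.8 ± 0.814 FPKM alone and was not called. The falls numbered 3 in the fits that dropped alone replicate 3 or co-culture replicates 1 or 2. Over the 8 lists together, 54 of 145 tested genes fell and 11 rose, beside 17.9% and 13.9% of all tested genes. The rises numbered 5 when co-culture replicate 2 was dropped and 7 when any other library except alone replicate 1 was.

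**Figure D4:**
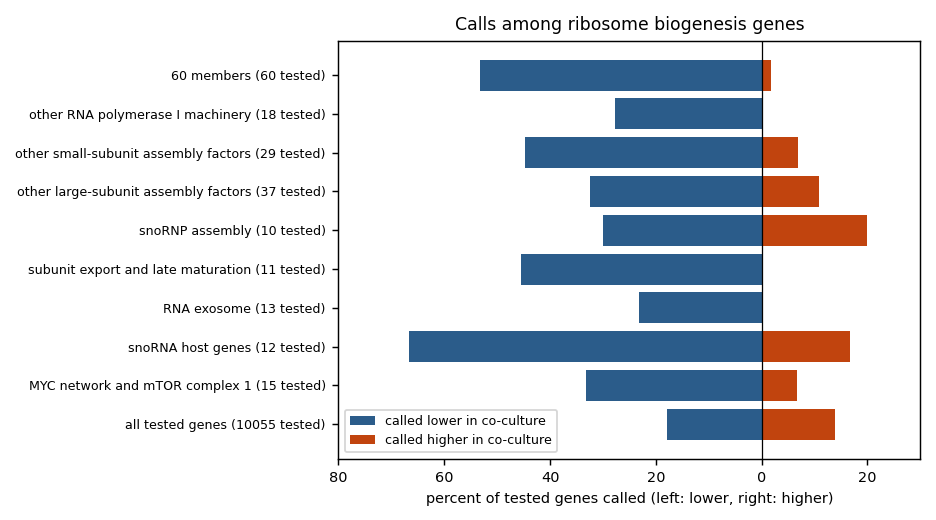
The percent of tested genes called lower (bars to the left) and higher (bars to the right) in co-culture is drawn for the 60 members, 8 further lists and all 10055 tested genes, with the number tested beside each name. The members reach 53.3% lower and 1.67% higher, against 17.9% and 13.9% of all tested genes.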

How the data were processed

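The authors deposited 1 table of FPKM values per gene and library. Per the submitters' processing notes, fastp, HISAT2, HTSeq and mm10 were used, and per the labels' protocols libraries were made with a VAHTS kit from TRIzol RNA. Not given in the sources used here were the annotation, the strand setting and the handling of human reads and of reads shared by similar genes, such as Npm1 and its processed copies. Whole reads were recovered for all 21436 genes from ratios between libraries (relative tolerance 1e-07), and the recovered totals hold 98.6% to 98.7% of reads in listed genes. All value columns were matched by name, 0 were left over.

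Genes were tested with limma 3.58.1 under R 4.3.3, by lmFit and a trended eBayes, on log2(FPKM + 1) of all 6 libraries, co-culture minus alone, with no replicate block. The 10055 genes whose mean reached 1 FPKM entered. The other 11381 genes were not tested. Calls have a Benjamini-Hochberg adjusted p below 0.05 over all tested genes. A fold is a ratio of group mean FPKM, whereas log2 changes come from the fit and understate low genes. The members, role groups, 8 further lists, 6 motifs and alternatives were chosen with earlier results of these data known. Per-library values are given for the 2 called members with the smallest p and the most abundant member of each role group, the 5 largest log2 falls, Nop53 and others named after their values were seen. List examples are the 3 called genes with the smallest p, plus genes chosen after their values were seen. Coordinates are those of GENCODE vM21 on GRCm38, and sequences those of RefSeq on GRCm38.p6, both the mm10 build.

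Alternatives were pseudocounts of 0.1 and 0.01, no filter, a filter at 5 FPKM, median-ratio, TPM and quantile scaling, no trend, array weights, a replicate block, each library left out and a threshold of 0.01. Limma-voom on recovered reads and a spline correction for GC content and length (5 degrees of freedom, values for 99% of tested genes) were run too, the correction chosen after seeing the data, as were all alternatives for the further lists and the sum without Npm1.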

Additional observations from a re-analysis of the deposited data

How the results depend on the processing

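No named member changed direction under any alternative. The 22 named members include Polr1a, Nop56, Nop58, Dkc1, Gar1, Nop10, Npm1, Nolc1, Ddx21, Heatr1 and Wdr43. The rest of them are Wdr3, Utp18, Mphosph10, Imp3, Rrp9, Nop14, Noc4l, Pes1, Bop1, Nop2 and Nop53. Of 418 values of these 22 under alternatives, 399 stayed on their side of the threshold and 18 were no longer called. Imp3 became called (0.13 on the log2 scale, adjusted p = 0.0324, quantile scaling). Calls at 0.05 also changed in some fits for members outside these 22. Nob1, Utp3, Polr1b, Utp20, Wdr12, Emg1, Ddx52 and Ddx56 became called, and Utp4, Noc3l, Rcl1, Fbl and Rrp12 lost their calls. Of the 32 members that fell, 24 were called in all 18 alternative fits at 0.05. At a threshold of 0.01 the genes called higher numbered 635 and those called lower 1073, the members had 1 higher and 23 lower, and the further lists had 3 higher and 32 lower. Without a filter the further lists had 5 higher. Members called higher numbered 3 with quantile scaling, 2 with array weights and 2 with the GC and length correction. Without the filter 24 members were called lower, and Fbl, Rrp12 and Utp18, called in every other fit at 0.05, were not called there. With a library left out, genes called higher ranged from 925 to 1419 and lower from 1374 to 1753, members higher from 1 to 2 and lower from 27 to 33, and genes of the further lists higher from 5 to 14 and lower from 42 to 47. Deviations from the group means correlated at −0.044, 0.109 and −0.083 for same-numbered libraries and at −0.123 to 0.171 for others. With 3 libraries per group these values cannot decide whether the replicate numbers pair the libraries. With the number as a block 1 member was called higher and 31 lower, against 1258 and 1640 of all genes, and 10 and 49 of the further lists. Under the block Npm1 (adjusted p = 0.0607) and Polr1a (0.0648) were not called and Nob1 was (0.0488). The causes were not tested. Limma-voom on recovered reads called 33 members lower and 1 higher. Members had at least 430 reads per library, which allows a counting error of at most 4.82%.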
